A study of Homo sapiens with 12 samples.

Results

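The human mitochondrial chromosome carries its own small set of genes, and all 37 rows of the deposited count table that lie on chromosome MT are described here, of 58735 genes in the table. The 37 genes are 13 mRNA genes, 2 rRNA genes, and 22 tRNA genes, taken by their chromosome alone. They were measured by poly(A) RNA sequencing in TIGK cells, a human gingival keratinocyte line immortalized with telomerase and grown at 48 mM glucose in a base medium without L-arginine (Arg). Arg-treated cells received 500 μM Arg for 24 or 48 h, and untreated controls were kept for the same times with 0 μM Arg, so the high glucose was shared by all 4 groups. Each group had 3 libraries, called replicates A, B, and C by their labels, and all 12 came from a single cell line. The labels do not say whether the replicates were separate cultures, so the p-values measure the spread between these libraries, which may be technical. All 12 keratinocyte markers looked up were present, among them KRT5 at 23381 counts per 1000000 (CPM) or more, while of the melanocyte markers TYR was at 0 in every library and PMEL lay between 0.893 and 2.91 CPM. Of the fibroblast markers, COL1A2 and COL3A1 reached at most 0.0585 and 0.213 CPM, but COL1A1 lay between 10.5 and 27.4 CPM and DCN between 15.0 and 77.9 CPM.

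Mitochondrial DNA is transcribed from both strands into long precursors by the RNA polymerase POLRMT with the help of TFAM. The tRNAs stand between most of the other genes and are cut out, which frees the rRNAs and mRNAs. The 13 mRNA genes encode core subunits of the respiratory chain complexes I, III, and IV and of the ATP synthase (complex V). The 2 rRNAs, MT-RNR1 and MT-RNR2, form the small and the large subunit of the mitochondrial ribosome that translates the mRNAs. MT-ND6 is read from the opposite strand, and all the other mRNAs from the same strand as the rRNAs. Most mitochondrial mRNAs carry short poly(A) tails, while tRNAs end in CCA and the tails of the rRNAs are shorter. The RNA kept by poly(A) selection is thus not an even sample of these classes.

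The ends of the genes show how closely poly(A) addition is tied to these transcripts, since several of them lack a complete stop codon in the DNA. Of the 13 mRNA genes, 7 ended on a full codon, 5 had 1 base after the last full codon, and 1 had 2, so 6 need the A residues of the tail to complete the stop. The last 30 bases of 5 of them follow, on their own strand from 5′ to 3′ and in GRCh38, with the encoded bases of the stop codon in capitals. They were chosen to show each kind of ending in genes whose values are given below.
MT-ND1 (chrM:4233-4262, plus strand): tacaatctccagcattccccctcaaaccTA
MT-ND4 (chrM:12108-12137, plus strand): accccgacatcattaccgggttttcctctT
MT-CO3 (chrM:9961-9990, plus strand): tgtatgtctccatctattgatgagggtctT
MT-CO1 (chrM:7416-7445, plus strand): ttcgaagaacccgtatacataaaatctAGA
MT-ND6 (chrM:14149-14178, minus strand): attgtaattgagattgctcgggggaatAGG
MT-CO1 and MT-ND6 end on AGA and AGG, codons that are not read as arginine in human mitochondria. MT-ND6 also stood apart in base composition, with 35.6% G and 7.05% C, while MT-CO3 had 14.8% G and 31.8% C. It lies tail to tail with MT-ND5, which ends at base 14148, next to the first base of MT-ND6 at 14149. Whether the counting used the strand of the reads is not given in the sources used here, so counts on MT-ND6 may include RNA of the opposite strand.

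Pairs of genes also overlap on the same strand, and reads in an overlap cannot be given to either gene with certainty. MT-ATP8 and MT-ATP6, both ATP synthase subunits, share 46 bases, shown in capitals with 15 bases on each side, a large part of MT-ATP8, a gene of 207 bases.
MT-ATP8 and MT-ATP6 (chrM:8512-8587, plus strand): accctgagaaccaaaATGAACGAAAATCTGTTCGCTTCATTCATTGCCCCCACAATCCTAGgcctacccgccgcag
MT-ND4L and MT-ND4, subunits of complex I, share 7 bases in the same way.
MT-ND4L and MT-ND4 (chrM:10745-10781, plus strand): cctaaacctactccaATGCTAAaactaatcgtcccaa
The capitals of each line open with the ATG that starts the second gene and close with the stop codon of the first.

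The tRNA genes were nearly absent, and those that were counted lie mainly on the minus strand. The 3 with the most counts were MT-TP (4879 counts in all), MT-TC (3701), and MT-TN (3283), which carry proline, cysteine, and asparagine. Their whole genes follow with the anticodon in capitals, because MT-TC and MT-TN fell with Arg at 24 h and MT-TP did not pass the test.
MT-TN (chrM:5657-5729, minus strand): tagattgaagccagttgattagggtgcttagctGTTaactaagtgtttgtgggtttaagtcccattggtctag
MT-TC (chrM:5761-5826, minus strand): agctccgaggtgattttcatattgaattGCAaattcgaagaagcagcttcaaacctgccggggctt
MT-TP (chrM:15956-16023, minus strand): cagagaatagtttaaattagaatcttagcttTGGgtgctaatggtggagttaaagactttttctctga
MT-TC shares 1 base with its neighbor MT-TY. As for MT-ND6, counts on these 3 genes may include RNA of the opposite strand. Whether the counts came from mature tRNAs or from longer precursors was not tested. Of the 22 tRNA genes, 5 passed edgeR's filter on low counts, namely these 3, MT-TL1, and MT-TY. The other 17 held between 0 and 55 counts each over the 12 libraries, 263 in all, and were not tested. MT-TL2 had 0 counts in every library, which allows a level of up to between 0.158 and 0.181 CPM (3 counts per library). The 13 mRNA genes and both rRNA genes passed the filter, so 20 of the 37 genes were tested.

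The genes of chromosome MT held 2298046 counts, between 109166 and 291916 in a library. Of these, 88.1% were on the mRNA genes, 11.3% on the rRNA genes, and 0.556% on the tRNA genes. The 407 nuclear pseudogene rows named after these genes held 0.573% as many counts, and how reads that match both copies were assigned was not tested. The 3 with the most counts lie in the same stretch of chromosome 1. MTATP6P1 was identical to MT-ATP6 at 98.5% of aligned bases and held 4.85% as many counts. MTND2P28 was identical to MT-ND2 at 98.2% and held 3.14% as many counts, and MTCO1P12 was identical to MT-CO1 at 98.6% and held 0.256% as many.

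Per kilobase of gene, the mRNAs of complex IV, the oxidase that passes electrons to oxygen, had the highest levels in the untreated control at 24 h. MT-CO3 stood at 2707 ± 69.1 CPM per kb (SD, n = 3), above MT-CO2 at 2123 ± 63.2 and MT-CO1 at 2102 ± 112. The levels of MT-CO2 and MT-CO1 overlapped between libraries. MT-ATP6 followed at 1273 ± 32.6 and MT-ND3, a complex I subunit, at 1177 ± 102 CPM per kb. The rRNAs came after these, MT-RNR2 at 772 ± 43.5 and MT-RNR1 at 482 ± 13.1 CPM per kb. The level of MT-RNR1 overlapped with that of MT-ND2, at 477 ± 32.9, and MT-ND2 with MT-CYB, the complex III subunit, at 471 ± 20.3. MT-ND6 at 171 ± 18.5 and MT-ND5 at 149 ± 20.7 CPM per kb also overlapped, and MT-ATP8 was the lowest mRNA gene at 89.5 ± 10.8. These levels depend on the selection of poly(A) RNA and, for the tRNA genes and MT-ATP8, on how short genes are counted. In bulk RNA, fewer mitochondria per cell and less RNA per mitochondrion cannot be told apart.

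A single library stood apart from its group. Control replicate B at 48 h had the highest level of the 12 libraries for 13 of the 20 tested genes, and it exceeded replicates A and C of its own group for 19 of 20. Its mRNA genes stood between 1.75 and 2.79 times the mean of replicates A and C, while MT-RNR1 stood at 1.05 times and MT-RNR2 at 1.36 times. Its level was also above all 3 Arg-treated libraries at 48 h for 19 of the 20 genes. The share of all genes in these orders was not counted. Over the 14551 genes compared, replicates A and B differed with a chi-square per degree of freedom of 20.9. That of replicates B and C was 23.9 over 14536 genes, and that of A and C was 3.66 over 14466. Replicate B thus stood apart over the table as a whole. The main values that use control replicate B at 48 h are therefore given with and without it. This library was singled out with its values known, and leaving it out lowers the control mean for 19 of the 20 genes. That favors a rise with Arg at 48 h and a fall with time without Arg. It also favors a positive difference between the Arg effects, so values without this library are a description and not separate evidence.

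The share of all counts that fell on chromosome MT was lower with Arg at 24 h. It was 1.20%, 1.30%, and 1.23% in control replicates A, B, and C and 0.802%, 0.624%, and 0.776% in the Arg-treated libraries. The 2 groups did not overlap. The difference was -0.507 percentage points, with an exact two-sided permutation p of 0.10 (adjusted 0.20 over 4 comparisons), and 0.10 is the smallest p that 3 libraries against 3 allow. At 48 h the share was 0.906%, 1.55%, and 0.707% in the control and 1.14%, 1.31%, and 1.16% in the Arg-treated libraries, so the 2 groups overlapped through control replicate B alone. The difference was 0.147 percentage points (exact permutation p = 0.60), and it was 0.394 without that library. Between 24 and 48 h, the share rose by 0.467 percentage points with Arg, with no overlap (exact permutation p = 0.10, adjusted 0.20), and it moved by -0.188 without Arg (exact permutation p = 0.50), or by -0.435 without control replicate B. Counting error was small beside these differences, at most 0.00557 percentage points on either side of a library's share (95% Wilson interval), and it covers counting only.

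**Figure D1:**
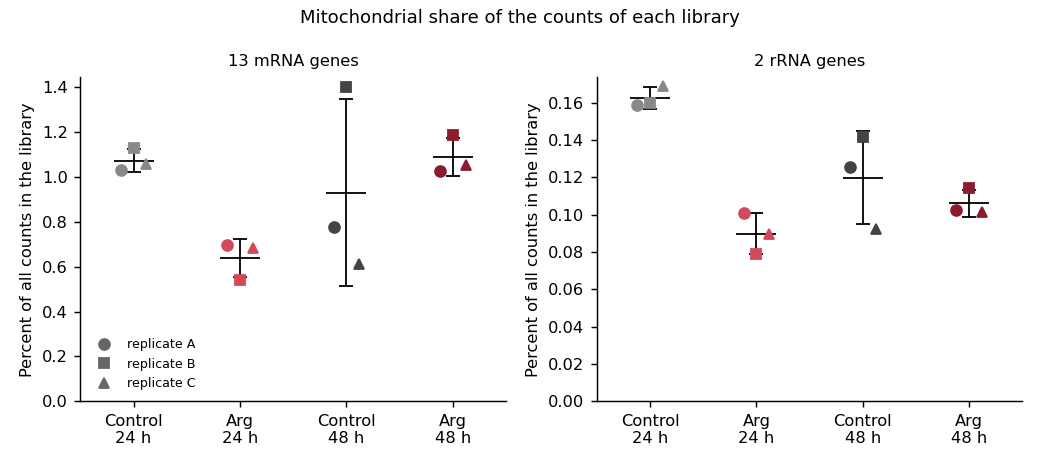
Percent of all counts of a library on the 13 mRNA genes (left) and the 2 rRNA genes (right) of chromosome MT, with 1 marker per library and the mean and SD of each group (n = 3). The 24 h Arg libraries lie below the 24 h controls in both panels, and control replicate B at 48 h, at 1.40% for the mRNA genes, lies above all other libraries in the left panel.

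Most mitochondrial transcripts, mRNA and rRNA alike, were lower after 24 h of Arg treatment. All 20 tested genes had a negative log2 fold change, and 16 of them fell at an adjusted p under 0.05 by edgeR's quasi-likelihood test with Benjamini-Hochberg adjustment over 14279 genes. Of all genes tested, 3.84% fell by the same rule. The 16 were 12 of the 13 mRNA genes, both rRNA genes, MT-TN, and MT-TC. The median log2 fold change of the 20 genes was -0.74, beside 0.00300 over all genes tested. In 17 of the 20, every Arg-treated library was below every control, which held for 13.4% of all genes tested.

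MT-RNR1, the small-subunit rRNA, had the smallest adjusted p. Its level was 465, 446, and 469 CPM in control replicates A, B, and C and 262, 222, and 208 CPM in the Arg-treated libraries. The highest Arg-treated library was thus far below the lowest control. The log2 fold change was -0.997 (SE 0.09, edgeR adjusted p = 2.33e-06), and on the linear scale the level fell by 49.9%. MT-RNR2, the large-subunit rRNA, was at 1171, 1157, and 1281 CPM in the control and at 766, 582, and 710 CPM with Arg (log2 fold change -0.81, SE 0.09, adjusted p = 4.27e-05).

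Among the mRNAs, those of complex I (NADH dehydrogenase), which takes electrons from NADH, fell over a wide range. MT-ND1 was at 349, 356, and 341 CPM in control replicates A, B, and C and at 179, 158, and 211 CPM with Arg. The groups did not overlap, and the level fell by 47.6% (log2 fold change -0.93, SE 0.09, adjusted p = 8.71e-06). MT-ND4L, another complex I subunit, was at 171, 186, and 175 CPM in the control and at 132, 121, and 153 CPM with Arg. It also showed no overlap but a smaller fall of 23.8% (log2 fold change -0.39, SE 0.09, adjusted p = 0.0136). The other complex I mRNAs lay between these genes, so that all 7 fell, with a median of -0.53.

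The 3 complex IV mRNAs fell together, with log2 fold changes between -0.85 and -0.74. MT-CO1, its catalytic subunit, was at 3076, 3420, and 3227 CPM in the control and at 2043, 1568, and 1917 CPM with Arg, again without overlap (log2 fold change -0.82, SE 0.09, adjusted p = 2.96e-05). MT-CYB, the mitochondrial subunit of complex III, fell by 39.1% (log2 fold change -0.71, SE 0.08). The ATP synthase gene MT-ATP6 fell by 40.2% (log2 fold change -0.74, SE 0.08), while MT-ATP8 did not pass the test. They share 46 bases, and the difference between their changes was not tested. MT-ATP8 was at 16.6, 21.0, and 18.0 CPM in the control and at 17.2, 11.6, and 14.3 CPM with Arg, so that its groups overlapped (log2 fold change -0.36, SE 0.15, adjusted p = 0.158).

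Counts on the tested tRNA genes did not behave alike. MT-TN was at 21.7, 22.4, and 23.4 CPM in the control and at 11.6, 11.1, and 12.6 CPM with Arg (log2 fold change -0.94, SE 0.12, adjusted p = 0.000176), and MT-TC fell by 51.1% (log2 fold change -1.03, SE 0.19). MT-TP was at 24.6, 21.3, and 22.5 CPM in the control and at 27.3, 16.5, and 24.1 CPM with Arg. Its Arg-treated libraries lay on both sides of the controls, and its log2 fold change of -0.01 had a 95% interval from -0.32 to 0.30. MT-TL1 and MT-TY, both below 4 CPM in every library, did not pass the test. The tRNA genes are far shorter than a typical mRNA, and nuclear genes under 1000 bases of exon held between 1.02% and 1.16% of all counts at 24 h in both groups. The count of 16 was between 13 and 16 with a library left out, and it was 10 when all 12 libraries shared a single estimate of the spread.

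**Figure D2:**
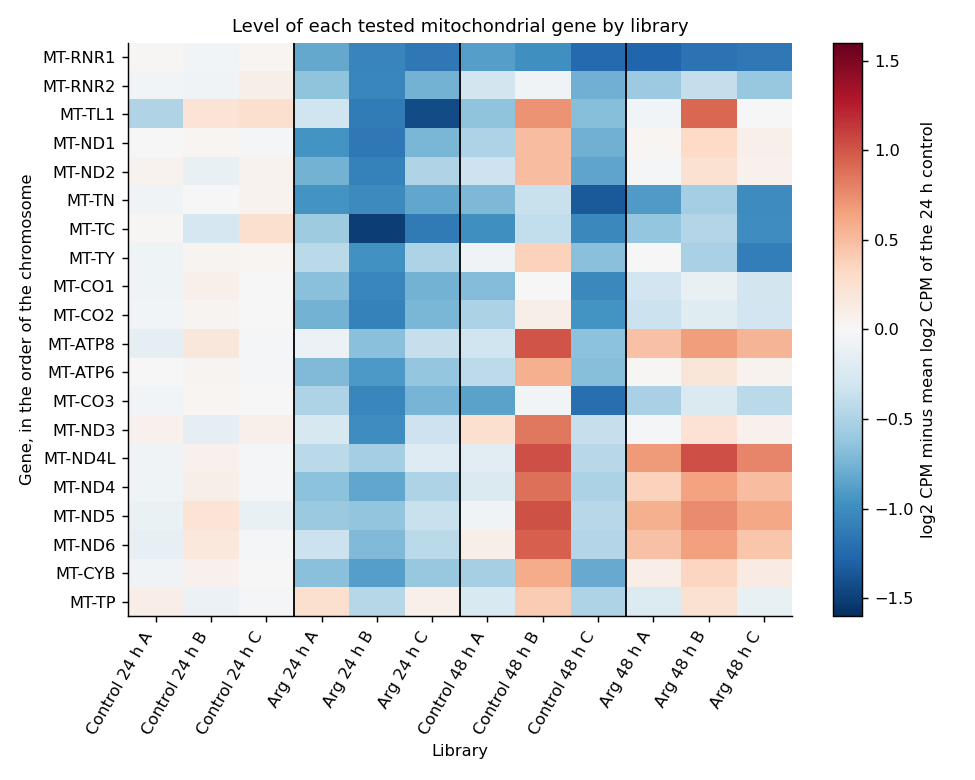
Level of the 20 tested mitochondrial genes (rows, in the order of the chromosome) in each of the 12 libraries (columns), as log2 CPM minus the mean log2 CPM of the 24 h control; blue is lower and red is higher. The 24 h Arg libraries are blue for nearly every gene other than MT-TP, and control replicate B at 48 h is the highest library for 13 of the 20 genes.

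At 48 h, none of the 20 tested genes passed the test between Arg-treated and control libraries. The count was 0 at an adjusted p under 0.05 by edgeR, where 0.117% of all 14562 genes tested passed in either direction. It was also 0 at an unadjusted p under 0.05, beside 13.4% of all genes, and 0 by DESeq2, beside 1.47% of the 12585 genes with an adjusted p. The log2 fold changes of the mRNA genes lay between -0.23 and 0.54, with 12 of 13 above 0, and those of MT-RNR1 and MT-RNR2 were -0.17 (SE 0.08) and -0.18 (SE 0.13). The groups of all 20 genes overlapped, beside 8.55% of all genes that were apart with Arg higher and 8.52% with Arg lower.

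For 14 of the 20 genes, the overlap came from control replicate B alone, since every Arg-treated library was above control replicates A and C. The share of all genes with this order was not counted. MT-ND1 was at 247, 490, and 205 CPM in control replicates A, B, and C and at 357, 433, and 369 CPM with Arg. The 3 Arg-treated libraries lay above control replicates A and C and below replicate B. MT-ND4L showed the same order, at 158, 364, and 130 CPM in the control and at 284, 363, and 304 CPM with Arg. Its log2 fold change over all 6 libraries was 0.54, with a 95% interval from -0.07 to 1.15.

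Without control replicate B, 12 of the 13 mRNA genes rose with Arg at an adjusted p under 0.05, beside 7.76% of the 14854 genes then tested. Only control replicates A and C remain in this fit. Replicate B was left out with its values known and exceeded both for 19 of the 20 tested genes, so the fit favors a rise. MT-ND4L rose by 1.14 on the log2 scale (SE 0.09, adjusted p = 3.27e-09), MT-ND5 by 0.89 (SE 0.08), and MT-CO1 by 0.62 (SE 0.07). MT-ND3 did not pass the test (log2 fold change 0.12, SE 0.11, adjusted p = 0.494). Neither rRNA passed it, with log2 fold changes of -0.15 (SE 0.07, adjusted p = 0.196) for MT-RNR1 and -0.01 (SE 0.09, adjusted p = 0.934) for MT-RNR2, and no tRNA did. The mRNA genes had a median log2 fold change of 0.69 there, beside 0.00583 over all genes tested. Nothing in the labels sets replicate B apart from the other controls.

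**Figure D3:**
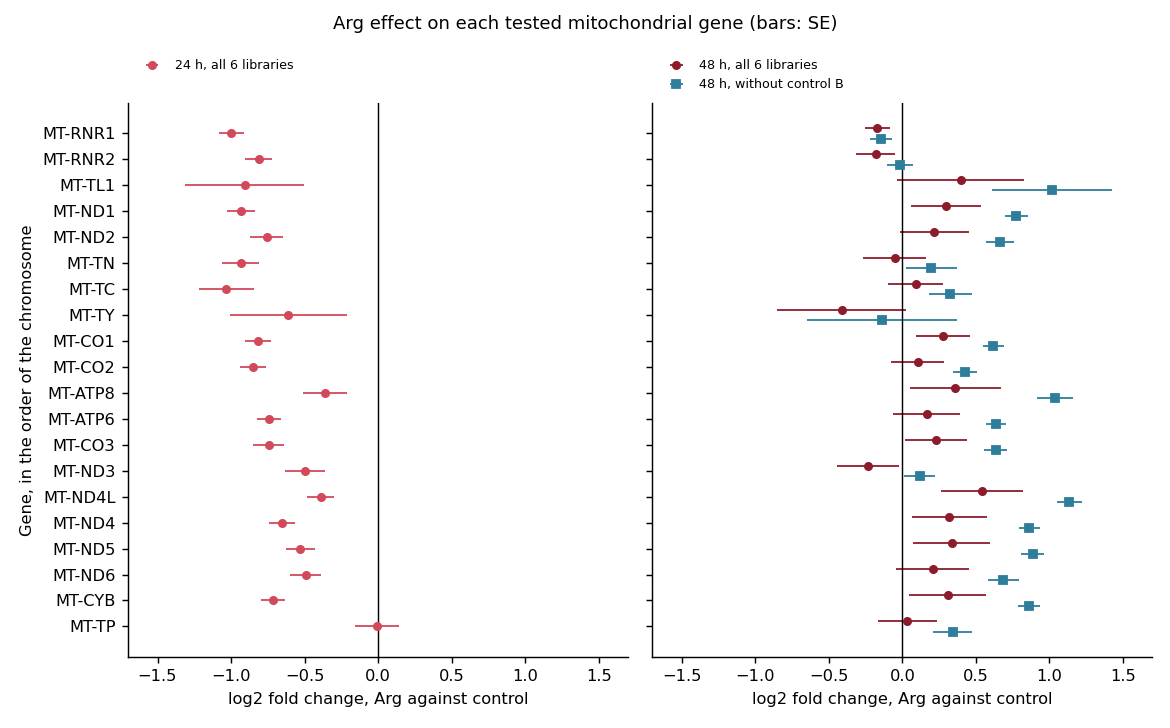
Log2 fold change of each tested gene with Arg against the control at 24 h (left) and at 48 h (right, circles for all 6 libraries and squares without control replicate B), with bars for the SE. All 20 points lie below 0 at 24 h, and at 48 h the mRNA genes lie between -0.23 and 0.54 with all libraries and between 0.12 and 1.14 without control replicate B.

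The difference between the Arg effects at 48 and 24 h was tested in a model of all 12 libraries. MT-RNR1 was the only mitochondrial gene that passed, with a difference of 0.83 on the log2 scale (SE 0.13, adjusted p = 0.0229), where 0.0132% of 15148 genes passed in that direction. Its level had fallen with Arg at 24 h, while at 48 h the controls, at 249, 232, and 195 CPM, were near the Arg-treated libraries at 192, 202, and 208 CPM. At an unadjusted p under 0.05, 16 of the 20 genes passed, all with a positive difference, beside 3.06% of all genes that passed in that direction. The call of MT-RNR1 was kept in 4 of the 12 fits that left out a library, namely those without control replicate B or Arg replicate A at 24 h and without control replicate A or B at 48 h. Without control replicate B at 48 h, 16 genes passed, beside 0.181% of 15508 genes, namely 12 mRNA genes, both rRNA genes, MT-TN, and MT-TC.

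Without Arg, few of the 20 tested genes passed the test between the times. From 24 to 48 h, MT-RNR1 fell by 50.9% (log2 fold change -1.03, SE 0.09, adjusted p = 0.000275), MT-TC fell by 41.9% (log2 fold change -0.78, SE 0.18), and MT-TN fell by 40.6% (log2 fold change -0.75, SE 0.20). These were the 3 genes called of 20, beside 19.9% of all 14449 genes tested that passed in either direction. The call of MT-RNR1 was kept in all 6 fits that left out a library. Those of MT-TC and MT-TN were lost without control replicate A or C at 24 h, and that of MT-TN also without control replicate A at 48 h, with adjusted p-values up to 0.0735 for MT-TC and 0.0793 for MT-TN. No mRNA gene passed the test, and their log2 fold changes lay between -0.62 for MT-CO3 and 0.33 for MT-ND3. Without control replicate B, 14 of the 20 genes fell, 10 of them mRNA genes, beside 8.60% of 14749 genes. MT-RNR1 fell by 1.05 on the log2 scale in that fit, close to its value with all libraries, while MT-CO3 moved from -0.62 to -1.02, and the mRNA genes lay between -1.02 and -0.03. Markers of fibroblasts also differed between the times, with a summed level of 33.2 to 54.2 CPM in the 24 h controls and 87.4 to 105 CPM in the 48 h controls, and 29.7 to 40.5 and 73.9 to 103 CPM with Arg. Of the 7 markers, 3 had a mean of at least 1 CPM, and the part of these levels in the changes with time was not tested.

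With Arg, the mRNAs rose from 24 to 48 h and the rRNAs did not rise with them to the same extent. Of the 20 tested genes, 15 rose and 0 fell, beside 14.3% of 14398 genes tested that rose and 28.3% that passed in either direction. The 15 were all 13 mRNA genes, MT-RNR2, and MT-TL1. In 14 genes every library at 48 h was above every library at 24 h, which held for 21.1% of all genes. The median log2 fold change was 0.71, beside 0.000922 over all genes tested. The 24 h Arg libraries serve here and in the comparison at 24 h, so these results are not independent of each other.

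Within the mRNAs, the rise was larger for complex I than for complex IV. MT-ND4, a core subunit of complex I, was at 589, 520, and 659 CPM at 24 h and at 1198, 1440, and 1302 CPM at 48 h. The groups were well apart (log2 fold change 1.16, SE 0.08, adjusted p = 1.08e-08). MT-ND5 rose by 1.17 (SE 0.08) and MT-ND4L by 1.23 (SE 0.09) on the log2 scale. MT-CO3, the complex IV subunit with the highest level per kilobase, was at 1508, 1029, and 1266 CPM at 24 h and at 1484, 1809, and 1573 CPM at 48 h. Its lowest library at 48 h was below its highest at 24 h (log2 fold change 0.36, SE 0.10, adjusted p = 0.0103), and the call was lost without Arg replicate B at 24 h or at 48 h. The medians were 1.08 for the 7 complex I mRNAs and 0.57 for the 3 complex IV mRNAs.

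MT-RNR1 moved little while the mRNAs rose. It was at 262, 222, and 208 CPM at 24 h and at 192, 202, and 208 CPM at 48 h with Arg (log2 fold change -0.20, SE 0.08, adjusted p = 0.0621). The times did not overlap but nearly met. MT-RNR2 rose by 0.29 (SE 0.08, adjusted p = 0.0146), a smaller change than that of any mRNA gene, and its call was lost without Arg replicate B at 24 h or at 48 h (adjusted p up to 0.121). MT-TL1, at 0.698 to 1.52 CPM at 24 h and 1.82 to 3.57 CPM at 48 h, rose by 1.23 with a wide SE of 0.41, and its call was lost without Arg replicate B or C at 24 h or replicate B at 48 h (adjusted p up to 0.214). MT-TP again stayed near 0 at -0.02, with a 95% interval from -0.33 to 0.30.

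**Figure D4:**
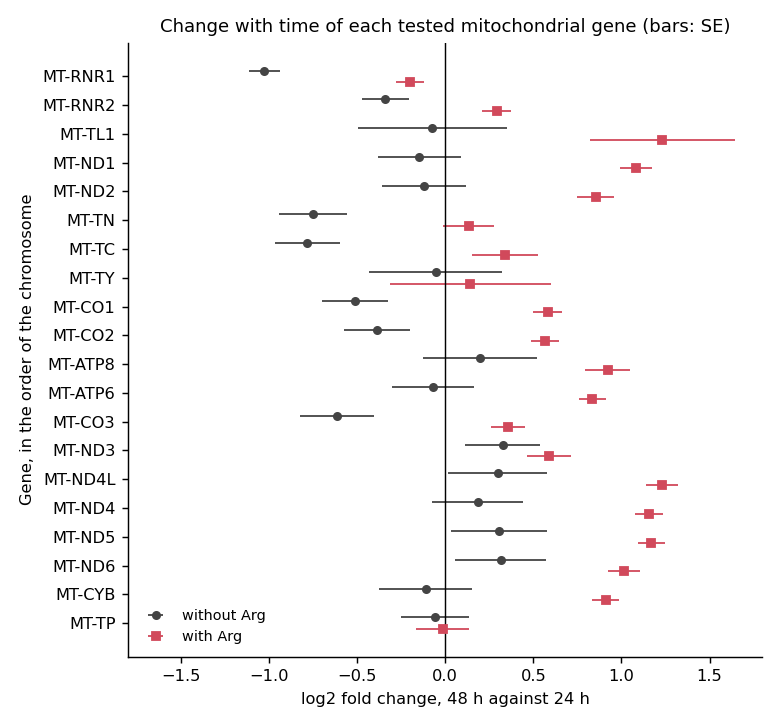
Log2 fold change of each tested gene from 24 to 48 h, without Arg (circles) and with Arg (squares), with bars for the SE. With Arg the mRNA genes lie between 0.36 and 1.23, while without Arg they lie between -0.62 and 0.33 with all libraries.

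The ratio of rRNA to mRNA within the mitochondrial counts does not depend on the nuclear genes or on the scaling of the libraries. There were 15.4, 14.1, and 16.0 rRNA counts per 100 mRNA counts in the 24 h controls and 14.5, 14.6, and 13.2 in the Arg-treated libraries at 24 h, which overlapped (log2 difference -0.11, exact permutation p = 0.30). At 48 h, the ratio was 16.1, 10.1, and 15.2 in control replicates A, B, and C and 9.99, 9.65, and 9.59 with Arg. Control replicate B was next to the Arg-treated libraries and still above them. The log2 difference with Arg at 48 h was -0.47 (exact permutation p = 0.10, adjusted 0.20), and without replicate B it was -0.68. With Arg, the ratio fell from 24 to 48 h by 0.53 on the log2 scale, with no overlap (exact permutation p = 0.10, adjusted 0.20), and 0.10 is again the smallest p possible. Without Arg, it moved by -0.17 over time (exact permutation p = 0.70) and by 0.0436 without control replicate B.

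The rRNAs also shifted against each other with time. There were 39.7, 38.5, and 36.6 MT-RNR1 counts per 100 MT-RNR2 counts in the 24 h controls and 34.1, 38.1, and 29.4 with Arg at 24 h. At 48 h there were 25.3, 20.1, and 27.5 in the controls and 23.8, 21.9, and 26.5 with Arg. All 6 libraries at 48 h were below all 6 at 24 h, and the groups overlapped at each time. This ratio was described without a test.
RNAs made without a poly(A) tail were listed as a rough look at poly(A) selection. Whether their level followed selection or their own expression was not tested. Of the 21 found in the table, 11 rows were at 0 in every library, and the summed level of the list, nearly all of it from RN7SL2, was 58.7 to 97.9 CPM in the 24 h controls and 76.4 to 211 CPM with Arg at 24 h. At 48 h it was 85.3 to 254 CPM in the controls and 251 to 329 CPM with Arg. Counts on all small nuclear and nucleolar RNA genes (snRNA, snoRNA, and scaRNA) together lay between 22.2 and 30.7 CPM in every library. Arg replicates A and C at 48 h had the highest levels of the list, and rRNA per mRNA was lowest in the Arg-treated libraries at 48 h, but control replicate B at 48 h, with 10.1 rRNA counts per 100 mRNA counts, had 85.3 CPM, and replicate C, with 15.2, had 254 CPM. Its part in the ratio was not tested.

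MT-ND6, the gene of the other strand, took a larger share of the mRNA counts at 48 h. Per 100 counts on the other 12 mRNA genes, it had 0.769, 0.892, and 0.808 counts in the 24 h controls and 1.00, 1.00, and 0.959 with Arg at 24 h, without overlap (log2 difference 0.26, exact permutation p = 0.10, adjusted 0.133). At 48 h the ratios were 1.26, 1.29, and 1.09 in the controls and 1.26, 1.22, and 1.18 with Arg, and the groups overlapped (log2 difference 0.01, exact permutation p = 1.0). From 24 to 48 h, the ratio rose by 0.56 without Arg and by 0.31 with Arg on the log2 scale, both without overlap (exact permutation p = 0.10, adjusted 0.133), and by 0.52 without Arg when control replicate B was left out. Against MT-ND5 alone, its neighbor, the log2 difference with Arg at 24 h was 0.03 (exact permutation p = 1.0). Over time, that ratio moved by 0.02 without Arg, or 0.06 without control replicate B, and by -0.15 with Arg. MT-ND6 was between 29.3 and 39.3 counts per 100 counts of MT-ND5 in every library. How evenly poly(A) selection kept MT-ND6 and the other mRNAs was not tested.

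The balance of complex I to complex IV mRNAs also differed between the times. This ratio was chosen after its values were seen and was given no test. There were 40.8, 39.0, and 39.8 counts on the 7 MT-ND genes per 100 on the 3 MT-CO genes in the 24 h controls and 40.5, 44.7, and 48.7 with Arg at 24 h. At 48 h there were 58.0, 68.8, and 56.5 in the controls and 61.9, 64.3, and 64.1 with Arg. Every library at 48 h was above every library at 24 h, with and without Arg.

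**Figure D5:**
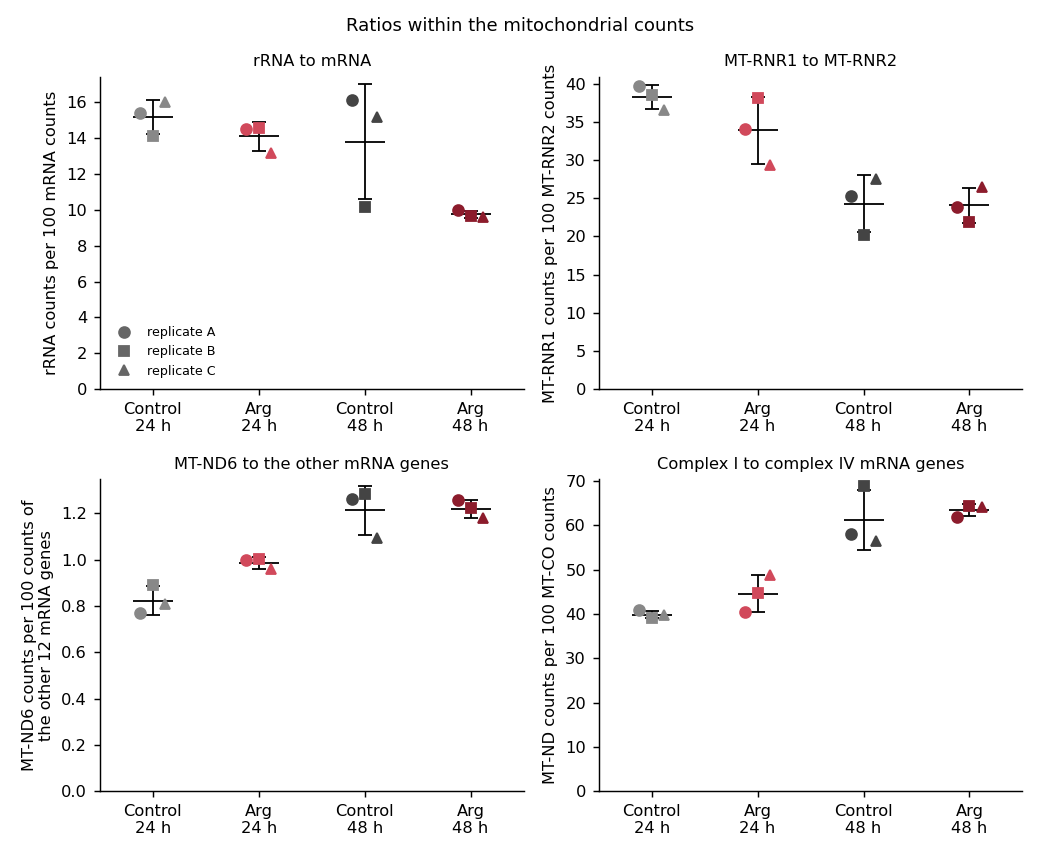
Ratios of counts within the mitochondrial genes, with 1 marker per library and the mean and SD of each group (n = 3). With Arg, rRNA counts per 100 mRNA counts drop to between 9.59 and 9.99 at 48 h, and the other 3 ratios separate the 48 h libraries from the 24 h libraries.

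Few of the nuclear genes that make, process, or pair with these transcripts passed the test with Arg at 24 h. Of 151 listed genes, 149 were tested there, and 6 fell and 0 rose, beside 3.84% of all genes that fell and 2.79% that rose. All 6 were nuclear subunits of the complexes. Negative values were found in 25 of 36 tested subunits of complex I, 8 of 9 of complex III, 11 of 11 of complex IV, and 16 of 18 of complex V. The median over all genes tested was 0.00300. At an unadjusted p under 0.05 by edgeR, 11 of 36 subunits fell for complex I and 4 of 9 for complex III. The same held for 7 of 11 of complex IV and 5 of 18 of complex V, beside 11.9% of all genes. By that rule 1 subunit of complex I and 1 of complex V rose, beside 10.8% of all genes. None of the 75 tested genes for mitochondrial DNA maintenance, transcription, RNA processing, RNA modification, and coactivation passed the test at 24 h, beside 6.63% of all genes in either direction, and none of 76 did at 48 h. From 24 to 48 h, 16 of these 76 fell and 1 rose without Arg, beside 19.9% of all genes in either direction, and 21 fell and 1 rose with Arg, beside 28.3%. The RNA polymerase gene POLRMT was at 37.2, 37.3, and 36.1 CPM in the 24 h controls and at 37.4, 36.3, and 38.4 CPM with Arg (log2 fold change 0.02, SE 0.09). TFAM, which binds and packs mitochondrial DNA, had a log2 fold change of 0.01 (SE 0.09). LRPPRC, which stabilizes mitochondrial mRNAs, was at 302, 300, and 315 CPM in the controls and at 363, 331, and 334 CPM with Arg. Its groups did not overlap, but its log2 fold change of 0.16 (SE 0.07) had an adjusted p of 0.198.

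The 6 that fell with Arg at 24 h were ATP5PO of the ATP synthase (log2 fold change -0.53, SE 0.09, adjusted p = 0.00290), CYC1 of complex III (-0.38), COX7B and NDUFA4 of complex IV (-0.44 and -0.30), and NDUFB10 and NDUFB8 of complex I (-0.34 and -0.76). The calls of ATP5PO and CYC1 were kept in all 6 fits that left out a library, those of COX7B and NDUFB10 in 3, and those of NDUFA4 and NDUFB8 in 2. All 11 complex IV subunits tested had a negative value, with a median of -0.18 beside -0.82 for the 3 mitochondrial mRNAs of that complex. At 48 h, 2 of 150 listed genes fell with Arg, both complex I subunits, NDUFB8 (log2 fold change -0.97, SE 0.15, adjusted p = 0.0315) and NDUFC2 (-0.80, SE 0.12, adjusted p = 0.0206), beside 0.117% of all genes in either direction. The call of NDUFB8 was kept only without control replicate B, and that of NDUFC2 only without control replicate B or Arg replicate B, with adjusted p-values up to 0.294 and 0.156 in the other fits that left out a library. Without control replicate B, 39 listed genes fell, beside 8.17% of all genes that fell, and 4 rose, beside 7.76% that rose. The median of the nuclear complex IV subunits at 48 h was -0.23, or -0.26 without control replicate B, where that of the mitochondrial mRNAs of the complex was 0.23, or 0.62 without that library. From 24 to 48 h with Arg, 5 listed genes rose and 25 fell, beside 28.3% of all genes in either direction, and POLRMT fell by 0.26 on the log2 scale (SE 0.09, adjusted p = 0.0366) in that comparison.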

How the data were processed

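Poly(A) RNA of TIGK cells was sequenced in 12 libraries, 3 for each of 4 groups formed from the labels. Per the labels and methods, the reads were filtered by fastp, aligned to GRCh38 by STAR, and assigned to genes by featureCounts, and the authors deposited the raw counts without normalization. Tool versions, the annotation release, and the strand setting are not given in the sources used here. Libraries held between 16542243 and 19040964 counts.

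The members and the lists of nuclear genes were chosen with earlier results of these data known. All MT rows may be named, with TFAM, POLRMT, LRPPRC, the 3 pseudogenes with the most counts, and at most 3 called genes per list and comparison with the smallest adjusted p. Replicates of a group differed by more than sampling noise (chi-square per degree of freedom between 3.66 and 23.9).

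Groups were compared with edgeR 4.0.16 in R 4.3.3 (TMM, filterByExpr, quasi-likelihood test, no block), 6 libraries per comparison and 12 for the difference between times, with Benjamini-Hochberg adjustment over all tested genes and a threshold of 0.05. CPM values were scaled by TMM over all 12 libraries. Shares and ratios were compared by exact permutation tests with scipy 1.17.1. The scripts were tested on simulated data. Sequences were read from GRCh38 at the table's coordinates, and all 37 equal the GENCODE v44 transcripts. Alternatives were DESeq2 1.42.0, other scalings and filters, a length correction, the replicate block, and leaving out each library.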

Additional observations from a re-analysis of the deposited data

Results flagged for a closer look

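MT-RNR1 was flagged because its Arg effect differed between 48 and 24 h by the test of the difference itself. The difference was 0.83 on the log2 scale (SE 0.13, edgeR adjusted p = 0.0229), from log2 fold changes of -0.997 at 24 h and -0.17 at 48 h. With a library left out in turn, it lay between 0.74 and 0.93, with adjusted p-values between 0.000938 and 0.178, and it passed in 4 of these 12 fits. Under the 9 other alternatives it lay between 0.82 and 0.95 and passed in all 9. Groups of 3 libraries were not tested for outliers.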

How the results depend on the processing

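The count of mitochondrial genes that fell with Arg at 24 h was 10 with all 12 libraries in one model and between 15 and 17 under the other alternatives that kept all libraries. The calls from 24 to 48 h with Arg stayed between 13 and 16. Without the filter on low counts, 8 mitochondrial genes passed at 48 h, 11 from 24 to 48 h without Arg, and 16 for the difference between the times, beside 2.10%, 12.4%, and 0.295% of all genes. The listed nuclear genes then numbered 16 at 24 h and 21 at 48 h, beside 4.94% and 2.10%. DESeq2 called 11 listed nuclear genes at 24 h and 14 at 48 h, beside 8.47% and 1.47% of all genes. With all 12 libraries in one model, 5 mitochondrial genes passed from 24 to 48 h without Arg, beside 24.4% of all genes, and 1 listed nuclear gene passed at 48 h, beside 0.271%. The labels do not say what else same-letter libraries share. Their deviations correlated at a mean r between -0.0347 and 0.0666 over 15148 genes. Single same-letter values lay between -0.0615 and 0.135, the highest for replicate B between the times without Arg. Those of different letters lay between -0.111 and 0.0977. With the replicate block, 1 mitochondrial gene passed at 48 h and 7 from 24 to 48 h without Arg, and 10 listed nuclear genes passed at 48 h, beside 1.26% and 28.0% of all genes at 48 h and over time, or 1, 7, and 7 with the length correction added, beside 0.755% and 26.8%. The block left the other counts of mitochondrial genes within 1.5 times. The shares and ratios cannot pass any threshold at this size, and the sign-flip of same-letter differences cannot go below 0.25. MT-ND6 over MT-ND5 alone moved by -0.15 with Arg at 48 h and by -0.15 from 24 to 48 h with Arg, against 0.01 and 0.31 over the other mRNA genes.

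With a library left out in turn, the mitochondrial calls ranged from 13 to 16 for Arg at 24 h, 0 to 12 at 48 h, 1 to 14 from 24 to 48 h without Arg, 12 to 16 with Arg, and 0 to 16 for the difference between the times. The highest values at 48 h, over time without Arg, and for the difference came without control replicate B at 48 h. The listed nuclear genes ranged from 2 to 22 at 24 h, highest without control replicate B at 24 h and lowest without Arg replicate B or C, and from 0 to 43 at 48 h, highest without control replicate B. From 24 to 48 h without Arg, MT-ND4 ranged from -0.36 to 0.43, MT-ND4L from -0.30 to 0.56, and MT-ATP8 from -0.48 to 0.48, and they turned negative and passed without control replicate B at 48 h. The share difference at 48 h ranged from -0.0263 to 0.394 percentage points, the rRNA to mRNA difference without Arg from -0.292 to 0.0436, and the MT-ND6 difference at 48 h from -0.0620 to 0.0549. The causes of these changes were not tested. The depth of the 17 tRNA genes with at most 55 counts was too low for any test.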
